A study of Mus musculus with 13 samples.

Results

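The 10 genes described here mark the primitive streak and the mesoderm that leaves it: T (Brachyury), Eomes, Mixl1, Fgf8, Wnt3, Evx1, Mesp1, Gsc, Hand1 and Tbx4. They were chosen by name, and all 10 were found among the 38377 gene identifiers of the count table. RNA was sequenced in bulk in 13 libraries of female mouse cell lines, in 6 groups. XEN lines, which are stem cells of the extraembryonic endoderm grown in serum, were wild type (WT, n = 2), deleted for the paternal copy of Xist (dXist, n = 3), wild type treated with the DNA methylation inhibitor 5-aza-2'-deoxycytidine at 20 uM (WT Aza, n = 2), or dXist with the same treatment (dXist Aza, n = 2). Epiblast stem cells (EpiSC), kept on matrigel with FGF2 and Activin, were WT (n = 2) or heterozygous for an Xist deletion (dXist, n = 2). Neither the labels nor the protocols state the exposure time, the number of independent clones or whether replicates came from separate cultures, so p-values measure the spread between these libraries, which may be technical.

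The primitive streak is the site where epiblast cells of the gastrulating embryo lose their epithelial form and become mesoderm and definitive endoderm. WNT, NODAL and FGF ligands start and maintain it, T-box and homeobox factors such as T, Eomes and Mixl1 act inside it, and bHLH factors such as Mesp1 and Hand1 follow in the mesoderm that moves out. EpiSC are derived from the epiblast of the post-implantation embryo and are cultured with the ligands that sustain it, and cells with streak gene expression are known in such cultures. XEN cells belong to a lineage that separates from the epiblast before gastrulation. In bulk RNA, a lower level from fewer expressing cells cannot be told apart from less RNA per cell.

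Library totals ran from 5848454 to 35247432 counts. The libraries were of 2 kinds: in 4 of them (both XEN WT Aza libraries and replicate 2 of each EpiSC genotype) RNAs without a poly(A) tail (mt-Rnr1, mt-Rnr2 and Rn7sk) held 10.4% to 13.5% of the counts, against 0.0152% to 0.279% in the other 9. These are called total-like and polyA-like below, as a description from the counts. Xist stood at 1560 and 1700 CPM (the count of a gene scaled by TMM to the size of its library) in XEN WT, 1.21 to 5.02 in XEN dXist, 1610 and 1180 in XEN WT Aza, 835 and 197 in EpiSC WT, and 0.448 and 0.261 in EpiSC dXist. The XEN library labelled dXist Aza replicate 1 held 13.3 CPM of Xist, and the library labelled dXist Aza replicate 2 held 233 CPM, so treatment results in dXist cells are given with and without the latter. The 10 markers of extraembryonic endoderm summed to 21900 to 82200 CPM in XEN libraries and 705 to 948 in EpiSC, and the 10 markers of primed epiblast to 47.7 to 231 in XEN and 1280 to 2150 in EpiSC, as the cell type labels state.

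The promoter windows of T, Eomes, Wnt3 and Tbx4 are shown because these are the ligand and the T-box genes on which the levels below turn, and CpG sites, the bases that DNA methyltransferases modify and that 5-aza-2'-deoxycytidine treatment demethylates, are in capitals. Each window holds the 250 bases before the start of a RefSeq transcript (GRCm38.p6), 5' to 3' on the + strand, at chr17:8434173-8434422 for T, chr9:118477939-118478188 for Eomes, chr11:103773925-103774174 for Wnt3 and chr11:85896515-85896764 for Tbx4.
T: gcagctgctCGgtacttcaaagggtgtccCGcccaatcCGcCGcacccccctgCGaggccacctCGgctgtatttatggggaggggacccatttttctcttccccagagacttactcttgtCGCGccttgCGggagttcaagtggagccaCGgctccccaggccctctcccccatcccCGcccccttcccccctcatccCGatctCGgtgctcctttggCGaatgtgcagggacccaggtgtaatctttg
Eomes: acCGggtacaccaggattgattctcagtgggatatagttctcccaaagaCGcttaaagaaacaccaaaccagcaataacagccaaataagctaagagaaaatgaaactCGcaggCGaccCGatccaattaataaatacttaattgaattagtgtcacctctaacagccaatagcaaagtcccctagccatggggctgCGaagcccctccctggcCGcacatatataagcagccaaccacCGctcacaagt
Wnt3: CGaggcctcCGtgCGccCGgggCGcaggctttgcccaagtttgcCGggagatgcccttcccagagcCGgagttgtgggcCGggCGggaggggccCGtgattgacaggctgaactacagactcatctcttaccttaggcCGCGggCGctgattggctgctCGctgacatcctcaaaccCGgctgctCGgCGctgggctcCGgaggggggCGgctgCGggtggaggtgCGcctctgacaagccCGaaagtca
Tbx4: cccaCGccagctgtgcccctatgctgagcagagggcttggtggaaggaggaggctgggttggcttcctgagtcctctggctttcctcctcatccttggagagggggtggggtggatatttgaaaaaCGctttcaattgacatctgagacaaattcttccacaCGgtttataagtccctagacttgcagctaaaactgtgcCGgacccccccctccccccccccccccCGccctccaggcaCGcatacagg

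Windows were matched for 7 of the 10 genes (T, Eomes, Wnt3, Evx1, Mesp1, Gsc and Tbx4). The CpG count was 22 in Wnt3 and in Gsc, 14 in T, 10 in Evx1, 8 in Eomes, 6 in Tbx4 and 2 in Mesp1, against quartiles of 2, 6 and 16 over all 32536 windows. The start used for Tbx4 lies 10343 bases inside the gene start of the GENCODE annotation, so its window is that of an internal start. Those used for Mesp1, Gsc and Wnt3 lie 198, 94 and 25 bases inside, so parts of these windows lie within the annotated genes. The core sequence bound by TCF and LEF factors, TCAAAG on either strand, was present in 13.9% of all windows. It lay 234 bases before the start in T, and 72 and 31 bases before it in Mesp1, where both matches fall within the annotated gene. A T-box half-site, TCACACCT on either strand, was in none of the 7 windows and in 1.12% of all. TATAAA, present on either strand in 12.3% of windows, lay 164 bases before the start of Gsc and 85 before that of Tbx4. These are matches of letters only, and methylation was not measured in these libraries.

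The first comparison asked how the 10 genes stood in epiblast-derived against extraembryonic endoderm cells. All 10 had a higher mean in EpiSC WT than in XEN WT, and in each of them both EpiSC WT libraries were above both XEN WT libraries. Of the 8 that passed the filter on low counts, 5 were called higher in EpiSC WT: the ligands Fgf8 and Wnt3, the T-box genes T and Tbx4, and the bHLH gene Hand1. Eomes was the member with a clear level in XEN cells too. Of all genes tested in this comparison 16.8% were called higher, and 34.7% had both EpiSC libraries above both XEN libraries. Several of the 8 passed the filter through the EpiSC libraries alone, so their count is a description.

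Wnt3 (chr11:103774150-103817957, + strand) encodes the WNT ligand that the mouse embryo needs to form a streak. It stood at 0.303 and 0.103 CPM in XEN WT, 0.299, 0 and 0.285 in XEN dXist, 4.54 and 4.31 in EpiSC WT, and 4.06 and 3.79 in EpiSC dXist. Every EpiSC library was above every XEN library, and the 4 EpiSC libraries lay close together. The mean was 21.8-fold higher in EpiSC WT than in XEN WT (log2 difference 4.46, SE 1.18, adjusted p = 0.0194). Between the dXist groups it was 20.1-fold higher (log2 4.39, SE 1.0, adjusted p = 0.00841).

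Fgf8 (chr19:45736798-45742915, - strand) encodes an FGF ligand that cells need to move away from the streak. Its values were 0.135 and 0.0342 CPM in XEN WT, 0.0665, 0.039 and 0.107 in XEN dXist, 1.59 and 1.99 in EpiSC WT, and 2.04 and 1.61 in EpiSC dXist. XEN libraries held at most 6 reads of it each, and no EpiSC library held fewer than 37. Fgf8 was 21.2-fold higher in EpiSC WT than in XEN WT (log2 4.39, SE 0.94, adjusted p = 0.00821) and 25.8-fold higher in EpiSC dXist than in XEN dXist (log2 4.70, SE 0.82, adjusted p = 0.00236).

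T (chr17:8434423-8442496, + strand) encodes the T-box factor that defines the streak and the notochord. The 9 XEN libraries held 2 reads of it in all, 1 in a WT and 1 in a dXist library. In EpiSC it stood at 2.72 and 2.5 CPM in WT and 1.6 and 1.61 in dXist, with no overlap between cell types or between EpiSC genotypes. The ratio of summed counts was 155 for the WT groups (95% counting interval 27.4 to 6170, adjusted p = 0.00409) and 134 for the dXist groups (23.5 to 5360, adjusted p = 0.00184). Counting intervals here cover counting error only.

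Eomes (chr9:118478212-118486132, + strand), the T-box factor required for mesoderm migration and definitive endoderm, shares exon sequence with the antisense gene Gm33460. No source used here names the counting strand, so reads of the 2 genes cannot be told apart there. It stood at 0.876 and 1.71 CPM in XEN WT, 1.66, 1.44 and 0 in XEN dXist, 12.8 and 4.35 in EpiSC WT, and 10 and 7.8 in EpiSC dXist. Replicate 3 of XEN dXist was set apart from the other 2, with 0 reads against 50 and 37, where 3 reads would have been 0.107 CPM. The mean was 6.63-fold higher in EpiSC WT than in XEN WT (log2 2.78, SE 1.32, adjusted p = 0.131) and 8.6-fold higher in the dXist groups (log2 3.20, SE 1.16, adjusted p = 0.0531), and neither difference passed the threshold of 0.05. Both were called by DESeq2 (adjusted p = 0.0418 and 0.0077), without the filter (0.00286 and 2.68e-05) and with a replicate block (0.00968 and 0.0088), and the second also with DESeq2's size factors in edgeR (0.0487) and without XEN dXist replicate 3 (log2 2.63, 0.00746). XEN dXist replicate 3 is the only library with that number, so the replicate block sets it aside too. For the dXist groups, the call with the block and the call without that library are therefore not separate results. Without EpiSC WT replicate 1 the difference between the WT groups was 3.37-fold.

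Tbx4 (chr11:85886422-85916097, + strand) encodes a T-box factor of the allantois and the hindlimb, tissues of later mesoderm. It had 0 reads in both XEN WT libraries, and 10, 1 and 0 reads in XEN dXist, or 0.333, 0.039 and 0 CPM. EpiSC WT held 1.68 and 1.44 CPM, and EpiSC dXist held 10.7 and 10.6. It was at least 30.6-fold higher in EpiSC WT than in XEN WT, against a floor of 3 reads over the group (adjusted p = 0.0107), and 85.8-fold higher in the dXist groups (log2 6.44, SE 1.13, adjusted p = 0.00331). The latter fold rests on the 10 reads of XEN dXist replicate 1, and without that library the log2 difference was 8.93 (adjusted p = 0.00161). The EpiSC genotypes are compared below.

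The homeobox genes were all near the limit of detection. Mixl1 (chr1:180693043-180697034, - strand), which restrains mesoderm and is needed for endoderm, had 1 read over both XEN WT libraries and 13 over EpiSC WT (0.289 and 0.139 CPM), a ratio of 13.6 with a counting interval of 2.05 to 579 (adjusted p = 0.0867). In the dXist groups it was 0.0589 ± 0.0174 CPM (SD, n = 3) in XEN and 0.35 ± 0.0594 (n = 2) in EpiSC (adjusted p = 0.0801). Evx1 (chr6:52313498-52318378, + strand), a factor of the posterior streak whose exons overlap the antisense gene Evx1os, had 0 reads in all 9 XEN libraries. Its EpiSC reads numbered 3 and 11 in WT and 0 and 2 in dXist. Gsc (chr12:104471209-104473330, - strand), a factor of the anterior streak, had 0 reads in the 5 untreated XEN libraries, 2 in each EpiSC WT library, and 7 and 6 in EpiSC dXist (0.196 and 0.261 CPM). Evx1 and Gsc did not pass the filter and have no test.

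The bHLH genes had 0 reads in all 5 untreated XEN libraries. Mesp1 (chr7:79792241-79793788, - strand), a factor of the earliest cardiac mesoderm, stood at 0.0289 and 0.324 CPM in EpiSC WT and 0.308 and 0.305 in EpiSC dXist. It was at least 3.47-fold higher in EpiSC WT than in XEN WT (adjusted p = 0.113) and at least 8.56-fold higher in the dXist groups (adjusted p = 0.0417), a call lost in 8 of the alternatives, with adjusted p of up to 0.122. Without EpiSC WT replicate 2, EpiSC WT held 1 read of Mesp1, which is under the floor of 3 reads. Hand1 (chr11:57828705-57832818, - strand), a factor of extraembryonic and lateral mesoderm and of trophoblast, stood at 1.39 and 0.139 CPM in EpiSC WT and 1.4 and 0.697 in EpiSC dXist. The polyA-like library was the higher in both genotypes. Hand1 was at least 15-fold higher in EpiSC WT than in XEN WT (adjusted p = 0.0339) and at least 29.3-fold higher in the dXist groups (adjusted p = 0.013). The first bound rests on EpiSC WT replicate 1: without it 3 reads were left in EpiSC WT, which is the floor, and the adjusted p was 0.158.

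**Figure D1:**
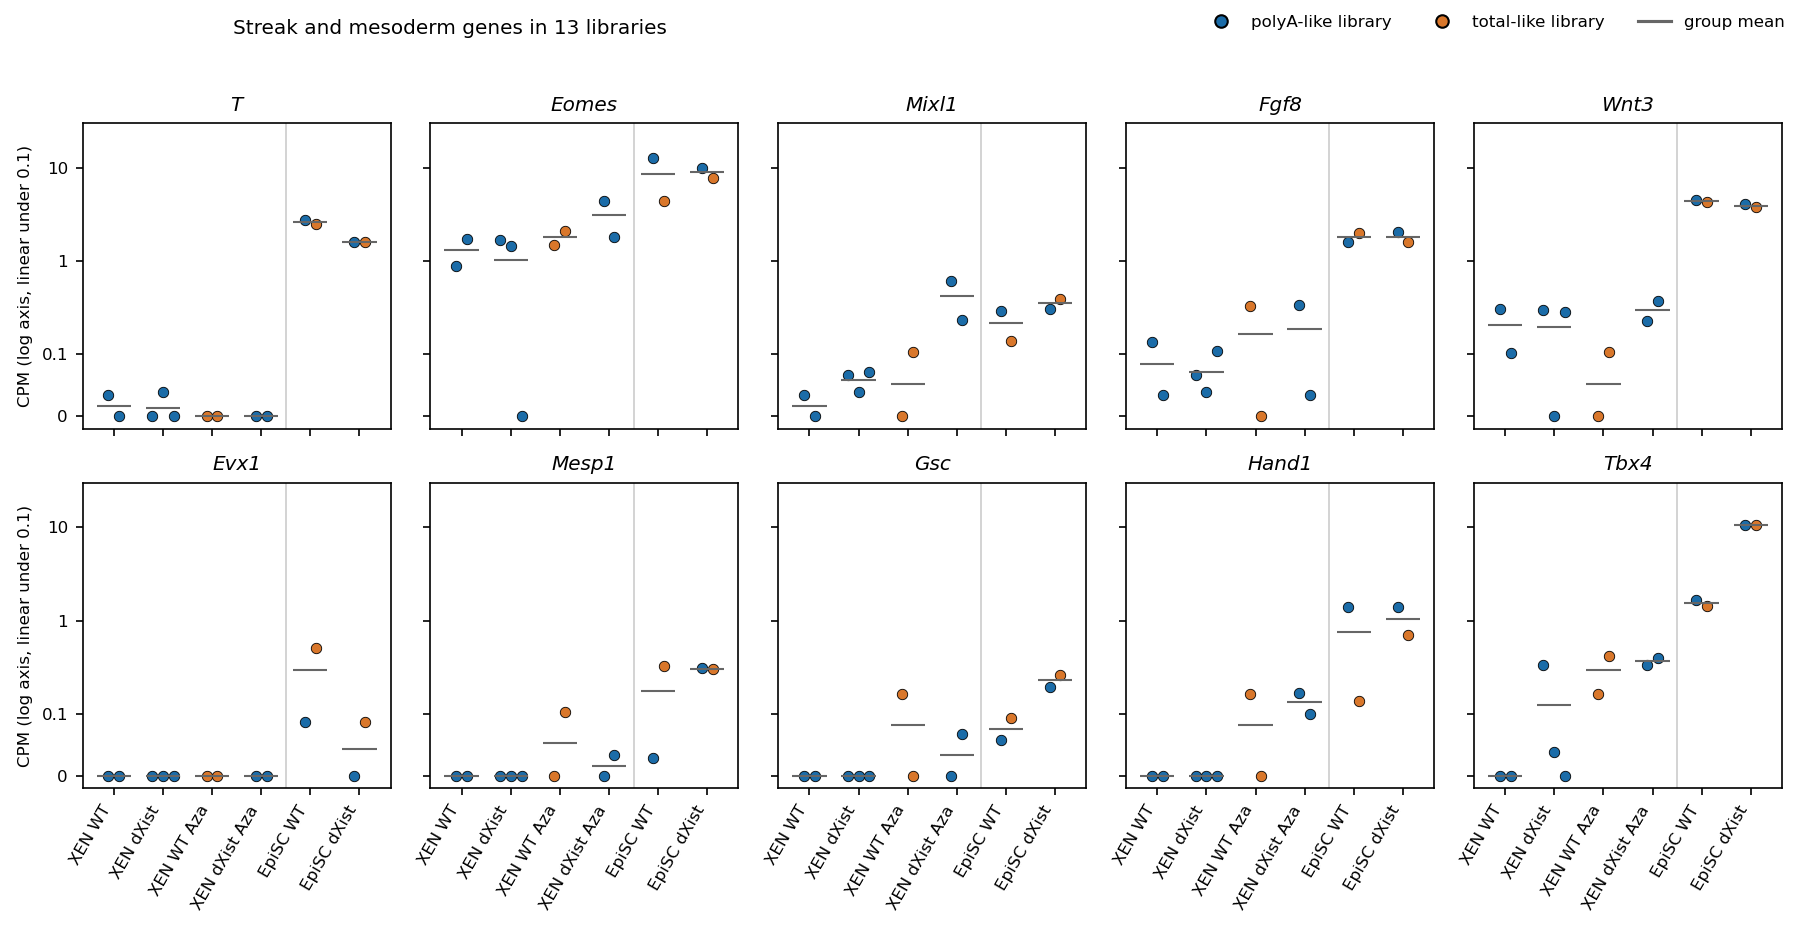
Level of each of the 10 genes in the 13 libraries, in CPM on an axis that is logarithmic above 0.1 and linear below; points are libraries coloured by library type, short lines are group means, and the vertical line separates XEN from EpiSC. T lies at 1.6 to 2.72 CPM in EpiSC and at no more than 0.039 in XEN, whereas Eomes is present in both cell types, and Tbx4 separates the EpiSC genotypes.

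In the dXist groups 6 of the 8 tested genes were called higher in EpiSC, where 21.5% of all genes tested were called higher and 34.7% did not overlap in that direction. This comparison shares no library with that of the WT groups, but both come from the same fit, with a shared filter and estimate of spread. Here too genes passed the filter through EpiSC alone, so the count is a description. In EpiSC WT against XEN WT the count of 5 came to 3 without EpiSC WT replicate 1 or without either XEN WT library, with Wnt3 and Hand1 lost each time. With polyA-like libraries alone (an alternative chosen after the data were seen) T was the gene called between the WT groups, and T, Fgf8 and Tbx4 were called between the dXist groups.

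Between genes, levels were set side by side per kilobase of exon. In EpiSC WT the order was Eomes (2.06 CPM per kb), Wnt3 (1.44), Fgf8 (1.33), T (1.13), Tbx4 (0.458), Hand1 (0.382), Mesp1 (0.138), Evx1 (0.104), Mixl1 (0.0933) and Gsc (0.0593). Neighbours in that order overlapped between libraries except Fgf8 with T and T with Tbx4. In EpiSC dXist the order was Tbx4 (3.12), Eomes (2.14), Fgf8 (1.35), Wnt3 (1.28), T (0.693), Hand1 (0.525), Mesp1 (0.24), Gsc (0.18), Mixl1 (0.153) and Evx1 (0.0151). There only Fgf8 with Wnt3, T with Hand1 and Gsc with Mixl1 overlapped. Tbx4 was thus the fifth gene in WT and the first in dXist. In XEN WT Eomes was first at 0.311 CPM per kb, followed by Wnt3 at 0.066 and Fgf8 at 0.0626, which overlapped each other.

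**Figure D2:**
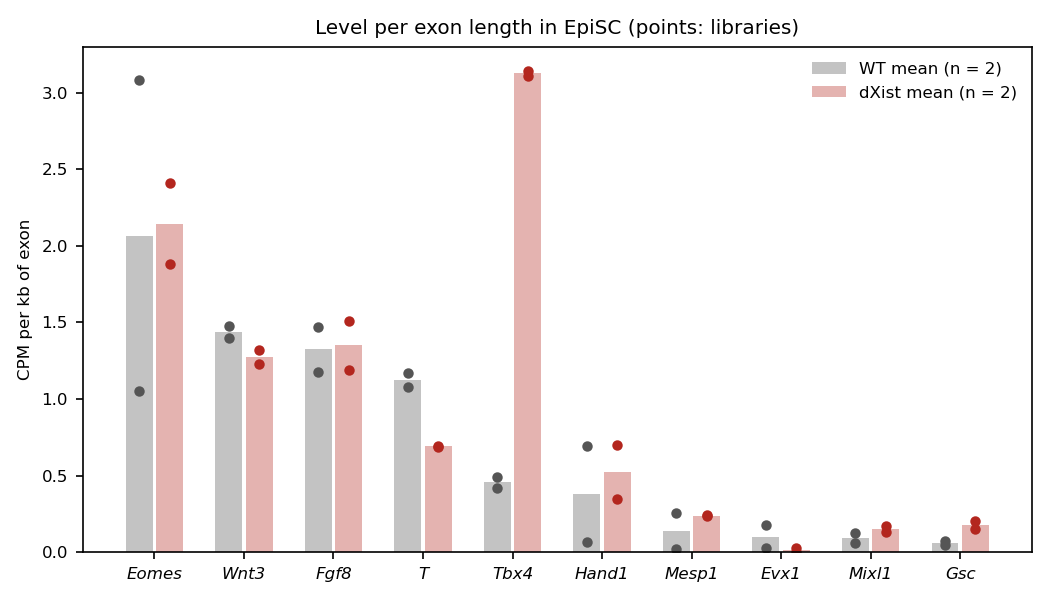
Level of the 10 genes per kilobase of exon in EpiSC, in CPM per kb; bars are the means of the 2 WT and the 2 dXist libraries, and points are the libraries. The mean of Tbx4 is 0.458 in WT and 3.12 in dXist, and that of Eomes is 2.06 in WT and 2.14 in dXist.

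Other genes of the same events, in lists drawn up with earlier results of these data known, gave a mixed picture between the cell types. The list of streak-inducing signals holds their inhibitors too. Of its 21 tested genes, 13 were higher and 1 was lower in EpiSC WT than in XEN WT. They included the NODAL inhibitor Lefty2 (207 ± 83.1 against 0.0169 CPM, n = 2 in each, adjusted p = 8.26e-05), Nodal itself (66.3 ± 19.4 against 0.0169, adjusted p = 0.000102), the WNT ligand Wnt8a (36.2 ± 4.99 against 0.119, adjusted p = 0.000105) and the NODAL co-receptor Tdgf1 (626 ± 161 against 0.0854, adjusted p = 0.000145). In the dXist groups 13 were higher and 2 lower, with Foxh1, a partner of SMAD proteins, at 95.2 ± 1.5 CPM in EpiSC and 2 reads over the 3 XEN libraries (adjusted p = 1.7e-05). The list's median log2 difference was 6.74 between the WT groups (4.86 with genes absent from XEN at their bound), beside 0.13 over all genes, a description since some passed the filter through EpiSC alone.

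Nascent and paraxial mesoderm genes split in direction. Of 16 tested, 4 were higher and 2 lower in EpiSC WT, where 14.1% of all genes were called lower. Meox1, a paraxial mesoderm factor, stood at 15.7 ± 1.77 CPM against 0 reads (adjusted p = 0.00073), and Nkx1-2, of the posterior epiblast, at 9.03 ± 1.25 against 0 reads (adjusted p = 0.00122). The retinoic acid-degrading enzyme Cyp26a1 was lower, at 4.21 ± 0.46 against 263 ± 235 (adjusted p = 0.00154), as was the WNT antagonist Frzb at 2.23 ± 0.731 against 58 ± 34.4 (adjusted p = 0.00684). Lateral, cardiac and blood mesoderm genes gave 6 higher and 4 lower of 16. Lmo2, of blood progenitors, and Isl1, of cardiac progenitors, were higher at 2.88 and 7.04 CPM against 0.0169 and 0.0677 (adjusted p = 0.00104 and 0.00119). The lower ones were led by Gata4 (0.188 against 1310) and Gata6 (0.868 against 597), which also define endoderm (adjusted p = 3.25e-05 and 8.82e-05).

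Anterior streak, node and endoderm genes gave 4 higher and 4 lower of 9, with the epiblast and head factor Otx2 higher at 35.9 ± 2.81 against 0.135 CPM (adjusted p = 0.000185). Sox17 (0.0839 against 654 CPM) and Foxa2 (1.65 against 136), factors of definitive and extraembryonic endoderm alike, were lower, both with an adjusted p of 3.25e-05. The BMP antagonist Nog was lower too, at 3.22 against 272 (adjusted p = 0.00118). Among the other T-box genes Tbx3 was lower at 0.336 against 47.4 CPM (adjusted p = 0.000173), and Tbx22 was higher at 0.801 against 0 reads (adjusted p = 0.0325). Genes of the epithelial-mesenchymal transition gave 6 higher and 1 lower of 12. Snai1, the repressor of E-cadherin in the streak, was the lower gene, at 2.16 ± 0.28 CPM in EpiSC WT and 218 ± 49.2 in XEN WT (adjusted p = 3.25e-05). Cdh2, N-cadherin, was higher at 128 ± 67.3 against 0.0169 (adjusted p = 0.000111). The dXist groups gave 4 and 4 of 16, 6 and 3 of 16, 4 and 3 of 9, 0 and 1 of 9, and 5 and 1 of 12 for these lists in the same order, where 16.9% of all genes were called lower.

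The second comparison asked what the heterozygous Xist deletion changed in EpiSC. Tbx4 was the member set apart: 1.68 and 1.44 CPM in WT against 10.7 and 10.6 in dXist, a 6.83-fold higher mean with no overlap (log2 2.80, SE 0.31). Its adjusted p was 0.105, which did not pass, and its rank by p was 43 of the 17132 genes tested. None of the 6 tested members was called by edgeR, where 0.0% of all genes were called and the smallest adjusted p was 0.102. At an unadjusted p under 0.05 there were 1741 genes, among them 1 member, Tbx4. DESeq2 called 492 genes (0.671% of those tested were called higher), with Tbx4 the called member (adjusted p = 7.87e-07).

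Replicate 1 of each EpiSC genotype was polyA-like and replicate 2 total-like, so each library type gives a pair of its own. Tbx4 was 6.36-fold higher in dXist in the polyA-like pair (381 against 58 reads, counting interval 4.82 to 8.54) and 7.37-fold higher in the total-like pair (243 against 31 reads, 5.06 to 11.1). A rise of at least 4-fold in both pairs was seen in 80 of the 17132 genes, or 0.467%. With library type as a term in the fit of the 4 EpiSC libraries, the log2 difference of Tbx4 was 2.79 (SE 0.40, adjusted p = 3.18e-10), and 4.91% of all genes were called higher and 6.53% lower in that fit. With 4 libraries that fit can measure a gene's own spread only poorly, so its p-values rest mostly on spread pooled over genes. With the same term Tbx4 was not called in the fit of all 13 libraries (adjusted p = 1.0) or in that of the untreated libraries (0.919). Its adjusted p ranged from 3.18e-10 to 1.0 over 11 alternatives while the log2 difference stayed between 2.75 and 2.85. It fell under the threshold without EpiSC WT replicate 2 (0.0419) or without EpiSC dXist replicate 2 (0.0428), and stayed over it without EpiSC WT replicate 1 (0.177) or EpiSC dXist replicate 1 (0.106).

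T stood lower in dXist in both pairs, with ratios of 0.587 (counting interval 0.415 to 0.825) and 0.645 (0.412 to 0.998), and its log2 difference of -0.67 (SE 0.40) had an adjusted p of 0.637. Wnt3 had ratios of 0.894 (0.709 to 1.13) and 0.88 (0.649 to 1.19), so both intervals held 1. Fgf8 had ratios of 1.29 (0.893 to 1.86) and 0.809 (0.507 to 1.29). For these genes the p-values do not show that the genotypes were alike. Of the tested members Tbx4 did not overlap upwards and T and Wnt3 did not overlap downwards, where 20.6% and 20.2% of all genes did so.

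The ratios of Eomes, Hand1 and Mesp1 differed between the 2 pairs, where replicate and library type cannot be told apart. Among these genes the counting intervals of the pairs were apart for Eomes alone, and the difference between pairs was not tested. Eomes was 0.784 of the WT level in the polyA-like pair (0.68 to 0.904) and 1.79 of it in the total-like pair (1.39 to 2.32). Hand1 was level in the polyA-like pair, with a ratio of 1.01 (0.665 to 1.53), and 5.02-fold higher in the total-like pair, with 16 reads against 3 (1.44 to 26.9). Mesp1 had 11 reads against 1 in the polyA-like pair (a ratio of 10.7, 1.55 to 458) and 7 against 7 in the total-like pair. Evx1 had 3 and 11 reads in WT and 0 and 2 in dXist, a ratio of summed counts of 0.137 (0.0151 to 0.596), and was not tested. Gsc had ratios of 3.39 (0.645 to 33.4) and 2.82 (0.505 to 28.6), and Mixl1 of 1.07 (0.411 to 2.8) and 2.82 (0.704 to 16.2).

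**Figure D3:**
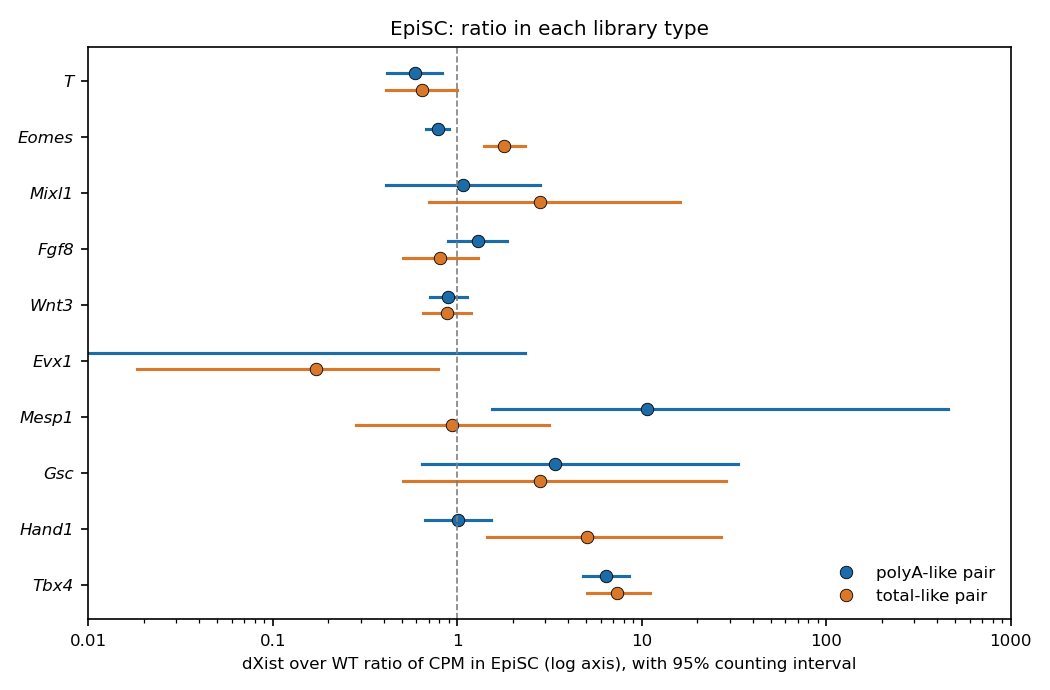
Ratio of dXist to WT in EpiSC for each of the 10 genes, on a logarithmic axis; points are the pair of polyA-like and the pair of total-like libraries, bars are 95% counting intervals, and the dashed line marks a ratio of 1. Both Tbx4 points lie at 6.36 or above and both T points at 0.645 or below, whereas the 2 Eomes points lie on opposite sides of 1.

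Summed markers of other cell types also differed between the EpiSC genotypes. The 8 fibroblast markers summed to 646 to 814 CPM in WT and 155 to 234 in dXist, led by Col1a1, with Lum at 0 in dXist. The 6 neural markers summed to 14.4 to 25.2 in WT and 3.75 to 5.96 in dXist, with none at 0. Sox1 alone reached 1 CPM, at 18.7 in WT and 4.11 in dXist, so these sums are mostly those of 1 gene. The 8 trophoblast markers with values summed to 5.6 to 6.74 in WT, with Elf5 at 0. In dXist they summed to 10.9 to 14.6, with Cdx2 and Plac1 at 0. Tfap2c led in both, at 3.17 CPM in WT and 10.1 in dXist, so the higher sum rests on that gene. Eomes and Hand1 are also known in trophoblast. The part of these differences in the values of the streak genes was not tested.

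Genes that neighbour Tbx4 were set beside it. The 5 protein-coding genes within 500 kb that were tested had adjusted p between 0.562 and 0.961 in EpiSC. Its neighbour Tbx2, the T-box gene with which it forms a cluster, had log2 ratios of 0.81 in the polyA-like and -0.14 in the total-like pair. Bcas3 had 0.42 and 0.56, Brip1 -0.79 and 0.21, Ints2 0.14 and 0.11, and Med13 -0.53 and 0.32. The values of Tbx4 in the same pairs were 2.67 and 2.88.

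**Figure D4:**
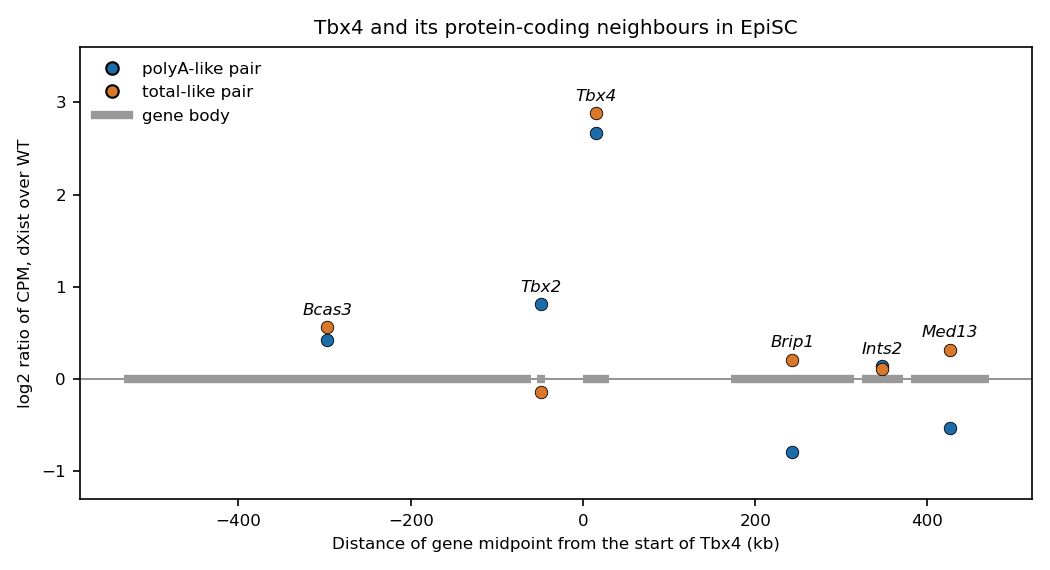
Log2 ratio of dXist to WT in EpiSC for Tbx4 and its protein-coding neighbours, against the distance of each gene's midpoint from the start of Tbx4 in kb; points are the polyA-like and the total-like pair, and grey bars are gene bodies. Tbx4 lies at 2.67 and 2.88, and every other gene shown lies between -0.79 and 0.81.

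For genes with a group mean of at least 5 CPM, the protein-coding genes with the most similar profile over the 13 libraries were sought, by the root mean square difference of centred log2(CPM + 0.5). For Tbx4 they were Tmem154 (a difference of 0.32), Gna14 (0.38) and Il10 (0.39). Tmem154 had means of 1.17 CPM in EpiSC WT and 8.28 in EpiSC dXist, Gna14 of 1.92 and 9.07, and Il10 of 1.87 and 6.17, and each stood at no more than 0.24 CPM in any XEN group. For Eomes they were Baz2b (0.39), Pank1 (0.41) and Ahi1 (0.44), of which Baz2b ran from 18 CPM in XEN WT to 131 in EpiSC WT. The 13 libraries share cell type and library type, and the likeness is a description.

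The third comparison asked what the paternal Xist deletion changed in XEN cells. Eomes and Tbx4 alone passed the filter, and the other 8 genes had at most 9 reads in any untreated XEN library. Neither Eomes nor Tbx4 was called by edgeR, with 0 of the 2 at an unadjusted p under 0.05, and Eomes was not called by DESeq2, which gave Tbx4 no adjusted p. Of all genes tested 0.0217% were called. Eomes stood at 1.29 ± 0.589 CPM (SD, n = 2) in WT and 1.04 ± 0.904 (n = 3) in dXist (log2 -0.33, SE 1.23, adjusted p = 0.951), and without dXist replicate 3 the log2 difference was 0.25. Without that library the count over all genes went from 4 to 510. Tbx4 was at least 2.43-fold higher in dXist (adjusted p = 0.484), and 10 of its 11 reads came from replicate 1. Mixl1 had 1 read over the 2 WT libraries and 2, 1 and 2 reads in dXist.

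In the test of whether the deletion acted differently in the cell types, 0 of 8 tested members were called by edgeR or by DESeq2, which gave no adjusted p to Mixl1, Mesp1 and Hand1, and 0 of the 8 were at an unadjusted p under 0.05, where 0.0101% of all genes were called. Tbx4 had the lowest adjusted p of the 8, at 0.706, with a coefficient that rests on 0 reads in XEN WT.

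The fourth comparison asked what 5-aza-2'-deoxycytidine changed in XEN cells. T and Evx1 had 0 reads in all 4 treated libraries. In dXist cells, Eomes stood at 4.36 and 1.8 CPM with treatment and at 1.66, 1.44 and 0 without, a 2.98-fold higher mean with no overlap, as in 20.3% of all genes (log2 1.58, SE 1.22, adjusted p = 0.422). By their titles the treated dXist libraries match untreated replicates 1 and 2. Untreated replicate 3, with 0 reads of Eomes, has no treated counterpart. With the replicate block the log2 difference of Eomes was 0.99 (adjusted p = 0.411). Tbx4 stood at 0.336 and 0.401 CPM with treatment and at 0.333, 0.039 and 0 without (2.97-fold, log2 1.53, adjusted p = 0.482). Without XEN dXist replicate 1, which held 10 of the 11 untreated reads, the log2 difference was 3.93, and without replicate 3 it was 0.98. Mixl1, which was not tested, had 11 and 7 reads with treatment (0.615 and 0.234 CPM) and 2, 1 and 2 without, a 7.2-fold higher mean, or 10.4-fold without the library labelled dXist Aza replicate 2. Without dXist Aza replicate 1 Mixl1 was 3.97-fold higher. Without untreated dXist replicate 1 or 3 the untreated reads numbered 3, which is the floor. The mean of the treated libraries, 0.425 ± 0.27 CPM, lay above the EpiSC dXist mean of 0.35 ± 0.0594 and the EpiSC WT mean of 0.214 ± 0.106. Its range overlapped both of theirs. Hand1 had 3 reads in each treated library and 0 in the 3 untreated ones, at least 3.74-fold higher. Without either treated library 3 reads were left, which is the floor.

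None of the 2 tested members was called in dXist cells by edgeR, Eomes was not called by DESeq2, which gave Tbx4 no adjusted p, and 0 were at an unadjusted p under 0.05, where 0.0761% of all genes were called. Without the library labelled dXist Aza replicate 2 the log2 difference was 2.05 for Eomes (adjusted p = 0.342) and 1.36 for Tbx4 (adjusted p = 0.615), and without replicate 1 it was 0.79 and 1.63. Over all genes the count went from 14 to 4730 without the library labelled dXist Aza replicate 2, to 414 without untreated dXist replicate 3, and to 0 without dXist Aza replicate 1 or without untreated dXist replicate 1 or 2.

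In WT cells both treated libraries were total-like and both untreated ones polyA-like, so the effect of the treatment cannot be told apart from that of the library type. The same limit holds for the test of treatment by genotype, since all dXist XEN libraries were polyA-like. In WT cells Eomes stood at 1.48 and 2.1 CPM with treatment against 0.876 and 1.71 without (1.39-fold, log2 0.64, SE 1.39, adjusted p = 0.896). Tbx4 had 1 and 4 reads against 0 and 0, at least 5.74-fold higher by the floor (adjusted p = 0.341). Without treated replicate 2, 1 read was left, which is under the floor. The treated libraries were the shallowest, and 3 reads there were 0.495 and 0.315 CPM. Of all genes tested 0.582% were called, and 0 of the 2 members by edgeR or DESeq2, with 1, Tbx4, at an unadjusted p under 0.05. Of the wider lists Tcf7l1, a repressor of WNT targets, was called lower at 32.3 ± 7.24 against 155 ± 55.9 CPM (n = 2 in each, log2 -2.09, SE 0.37, adjusted p = 0.0449). In the test of whether treatment acted differently in the genotypes, 0 of 2 members were called by edgeR or by DESeq2, which gave no adjusted p to Tbx4, and 0 were at an unadjusted p under 0.05, where 0.245% of all genes (45) were called, or 1605 genes without the library labelled dXist Aza replicate 2.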

How the data were processed

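The authors deposited a table of read counts per gene with no normalization. The submitters' processing notes name the build GRCm38, the aligner STAR (2.7.9a), the read counter featureCounts (2.0.1) and FastQC. Per the labels' protocols, Trizol RNA went into NEBNext Ultra or TruSeq stranded libraries, and no source used here names the kit of each library or the counting strand. GENCODE vM21 (GRCm38) matched 38240 of 38377 identifiers (99.64%), and 137 were unmatched.

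Counts were tested in R 4.3.3 with edgeR 4.0.16 (TMM, filterByExpr, robust quasi-likelihood F test, Benjamini-Hochberg over all genes tested, called under 0.05). The 9 untreated libraries, the 9 XEN libraries and the 4 EpiSC libraries each had a fit. Adjusted p-values are edgeR's unless DESeq2 (1.42.0) is named. CPM values were scaled by TMM, with means ± SD over libraries. A group at 0 reads was given a floor of 3 reads over the group, and ratios against 1 to 3 reads have exact conditional 95% intervals. Floors and intervals cover counting error only. Library type was set at 5% of counts in mt-Rnr1, mt-Rnr2 and Rn7sk.

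The 10 genes and the lists were chosen with earlier results of these data known. Every member was named, up to 4 called genes of each list by adjusted p, and the 3 nearest profiles of members reaching 5 CPM. Alternatives were DESeq2, its size factors in edgeR, no filter, a replicate block, all 13 libraries with library type, and each library left out. The block is the replicate number, and number 3 belongs to XEN dXist alone. In fits with XEN cells the block therefore also sets that library aside. Fits were tested on simulated data with large changes in genes of higher counts, a single set spread and no effect of library type. That test does not cover the members with few reads or the library types here.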

Additional observations from a re-analysis of the deposited data

How the results depend on the processing

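Of 290 comparisons of a member's log2 difference with an alternative, 248 kept direction with no call gained or lost. Among the others 13 gained a call, 20 lost one and 9 turned. The cause was not tested except where fewer libraries were fitted. The 248 include Tbx4 by DESeq2 in XEN dXist against WT and in dXist Aza against dXist, which had no adjusted p. Tests over 2 or 3 libraries a group, and floors of 0.084 to 0.495 CPM, limit what low genes can show. The turned values were small: Eomes in XEN dXist against WT was 0.24 with the replicate block, 0.25 without XEN dXist replicate 3 and 0.22 without XEN WT replicate 2, and in EpiSC dXist against WT, Eomes was -0.03, Fgf8 -0.08 and Hand1 -0.03 without dXist replicate 1, Fgf8 was -0.16 without WT replicate 1, and Eomes was -0.43 and Hand1 -0.32 without WT replicate 2. In XEN dXist against WT the block also sets XEN dXist replicate 3 aside, so 0.24 and 0.25 are not separate results. With a library left out, the log2 difference of Eomes in XEN ran from -0.84 to 0.25. In EpiSC the range was -0.43 to 0.99 for Eomes, -0.16 to 0.29 for Fgf8 and -0.32 to 2.83 for Hand1. Members called in EpiSC WT against XEN WT came to 1 with polyA-like libraries alone and 3 to 5 with a library left out. In the dXist groups they came to 3 and 5 to 6. In EpiSC dXist against WT, 1 member was called by DESeq2, without the filter and with the replicate block, and 0 to 1 with a library left out. Calls over all genes moved more. With polyA-like libraries they came to 3289 in EpiSC WT against XEN WT (6085 as reported), 2701 in the dXist groups (7568) and 0 in the deletion by cell type test (2). DESeq2 gave 506 in XEN dXist against WT (4), 492 in EpiSC (0), 646 for WT Aza (107), 2905 for dXist Aza (14), 218 for treatment by genotype (45) and 447 for deletion by cell type. The fit without a filter gave 684, 676, 747, 2750, 337 and 616 in that order. The fit of all 13 libraries with library type gave 31, 2, 1, 1393, 0 and 8. The replicate block gave 368 in XEN dXist, 1960 in EpiSC, 131 for dXist Aza and 743 for deletion by cell type. DESeq2's size factors gave 29 for dXist Aza. EpiSC in the fit of untreated libraries gave 6, or 5 with library type, both chosen after seeing the data. With a library left out the counts ran from 3045 to 4864 in EpiSC WT against XEN WT, 3412 to 8458 in the dXist groups, 1 to 510 in XEN dXist, 0 to 174 in EpiSC dXist against WT, 44 to 61 for WT Aza, 0 to 4730 for dXist Aza, 28 to 1605 for treatment by genotype and 1 to 670 for deletion by cell type. Deviations of libraries with the same number correlated at 0.741 in EpiSC, where the number is also the library type. Between XEN groups they correlated at -0.127 to 0.1, so there the numbers were not taken to pair the samples. The sample titles do match the treated dXist libraries to untreated dXist replicates 1 and 2, and the main XEN fit does not use this. The main EpiSC fit has no term for the number, and results with that term are given beside it.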

Other observations

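With library type as a term in the EpiSC fit, genes of the wider lists were called between dXist and WT that edgeR did not call without it. These were named after their values were seen. P-values of the EpiSC fit with that term rest mostly on spread pooled over genes. That fit called 1960 genes in all, against 2 with the same term in the fit of all 13 libraries and 5 in that of the untreated libraries, so most calls below are absent from those fits. Among 14 tested genes of nascent and paraxial mesoderm, 7 were lower and 0 higher in dXist. The paraxial factor Meox1 stood at 17 and 14.5 CPM in WT and 1.34 and 1.09 in dXist (log2 -3.66, SE 0.41, adjusted p = 1.61e-16, or 0.102 without the term). Sp8, a factor of the posterior embryo, stood at 10.1 and 8.15 against 0.252 and 0.305. Of 13 lateral, cardiac and blood genes, 6 were lower, among them Prrx1 (11.2 and 4.07 against 0.448 and 0.131) and Runx1 (15.8 and 10.5 against 3.92 and 3.4), and 2 were higher. The higher ones included the cardiac T-box gene Tbx20 at 3.3 and 2.04 against 12.7 and 14.9 CPM (log2 2.41, SE 0.38, adjusted p = 2.67e-08, or 0.149 without the term).

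Of 20 tested genes in the list of streak-inducing signals, which holds their inhibitors too, 5 were lower and 1 higher in that fit. The NODAL inhibitor Lefty2 stood at 266 and 148 CPM in WT against 18.3 and 15.9 in dXist. The WNT inhibitor Dkk1 stood at 1.3 and 1.3 in WT against 0.028 and 0.0871 in dXist. Bmp4, the BMP ligand that acts before the streak forms, stood at 7.52 and 8.15 against 2.49 and 1.87. The genes of the epithelial-mesenchymal transition gave 4 lower and 0 higher of 12, with Cdh2 at 176 and 80.8 against 26 and 22.8. Anterior genes gave 2 higher and 0 lower of 8, with Otx2 at 37.9 and 33.9 against 84.3 and 60 (log2 1.02, SE 0.29, adjusted p = 0.00782). In that fit 4.91% of all genes were called higher and 6.53% lower. The fibroblast markers were lower in the same dXist libraries, as given above, and their part in these values was not tested.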
